A study of Homo sapiens with 12 samples.

Results

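The genes described here carry out antigen presentation by HLA class I, the human form of the molecules that show fragments of a cell's own proteins at its surface to CD8 T cells and natural killer cells. They are 9 genes picked by symbol out of the 18950 in the deposited table, and all 9 had a row and passed the minimum level for testing (1 CPM, the count of a gene scaled to a common library size, in at least 3 libraries), as did 12527 genes in all. The study sequenced RNA from 12 libraries, 3 in each of 4 groups: DU145 GFP+, DU145 GFP-, PC3 GFP+ and PC3 GFP-. DU145 and PC3 are established human prostate cancer lines, grown in DMEM with serum. GFP, a green fluorescent protein, was the readout on which each line was sorted: GFP+ cells were the brightest 10% and are labelled as active in Wnt/β-catenin signaling, and GFP- cells were the dimmest 10% and are labelled as inactive. All 4 groups are thus sorted extremes of a line, with no unsorted library among them, and the labels do not say which construct carried GFP or whether it was in 1 clone.

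Class I molecules are assembled in steps. The proteasome cuts proteins into peptides, and under inflammatory signals its catalytic subunits are exchanged for those of the immunoproteasome, among them PSMB8 and PSMB9. TAP1 and TAP2 form the transporter that carries peptides into the endoplasmic reticulum, and TAPBP (tapasin) bridges it to the empty class I molecule. That molecule pairs a heavy chain, here HLA-B, HLA-C or the less variable HLA-E (a ligand of natural killer receptors), with the light chain B2M. Interferons and NF-κB are well known to raise the transcription of most of these genes, and loss of any step is a known way for tumours to escape T cells.

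In the annotation matched by identifier (GENCODE 29 on GRCh38), 8 of the 9 genes lie in the major histocompatibility complex on chromosome 6 and B2M lies on chromosome 15 (44711487-44718877, plus strand). TAP2, PSMB8, PSMB9 and TAP1 sit together within 37.8 kb (32821833-32859585). PSMB9 is on the plus strand and the other 3 are on the minus strand. TAP1 and PSMB9 are transcribed away from each other from RefSeq starts 488 bases apart, so that their promoter windows share 13 bases. Promoter windows (300 bases each, mostly before the start, RefSeq, GRCh38.p14) were found for 8 of the 9 genes, in 10 windows. The 6 shown here are those of the 4 genes whose sort effects differed between the lines (HLA-B, TAP2, TAPBP and PSMB9) and of HLA-C and TAP1, which lie beside HLA-B and PSMB9. Capitals mark matches on either strand to AANNGAAA, letters found in interferon response elements, or to GGGNNTTCC, a pattern like the NF-κB site.
HLA-B: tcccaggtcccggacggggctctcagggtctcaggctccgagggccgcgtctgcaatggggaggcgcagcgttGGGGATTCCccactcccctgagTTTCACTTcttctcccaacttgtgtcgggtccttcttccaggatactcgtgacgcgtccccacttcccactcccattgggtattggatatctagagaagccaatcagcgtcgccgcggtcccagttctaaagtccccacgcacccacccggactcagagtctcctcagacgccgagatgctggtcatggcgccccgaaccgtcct
HLA-C: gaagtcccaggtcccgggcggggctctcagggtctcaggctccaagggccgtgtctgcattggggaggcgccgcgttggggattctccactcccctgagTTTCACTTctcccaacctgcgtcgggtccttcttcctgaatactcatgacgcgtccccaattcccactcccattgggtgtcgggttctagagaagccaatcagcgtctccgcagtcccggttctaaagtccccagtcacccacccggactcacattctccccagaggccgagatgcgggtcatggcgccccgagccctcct
TAP1: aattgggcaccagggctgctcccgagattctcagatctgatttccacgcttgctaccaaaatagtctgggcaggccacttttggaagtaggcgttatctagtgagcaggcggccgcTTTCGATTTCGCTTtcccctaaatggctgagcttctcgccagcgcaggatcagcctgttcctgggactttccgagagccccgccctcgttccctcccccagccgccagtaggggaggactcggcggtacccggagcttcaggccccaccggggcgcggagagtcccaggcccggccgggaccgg
PSMB9: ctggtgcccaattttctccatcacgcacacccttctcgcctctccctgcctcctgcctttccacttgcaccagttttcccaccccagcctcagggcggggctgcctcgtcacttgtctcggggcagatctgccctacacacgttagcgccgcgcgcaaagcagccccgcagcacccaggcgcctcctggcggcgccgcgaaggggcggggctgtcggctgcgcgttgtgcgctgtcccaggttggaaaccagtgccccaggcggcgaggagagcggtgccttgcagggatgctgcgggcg
TAP2: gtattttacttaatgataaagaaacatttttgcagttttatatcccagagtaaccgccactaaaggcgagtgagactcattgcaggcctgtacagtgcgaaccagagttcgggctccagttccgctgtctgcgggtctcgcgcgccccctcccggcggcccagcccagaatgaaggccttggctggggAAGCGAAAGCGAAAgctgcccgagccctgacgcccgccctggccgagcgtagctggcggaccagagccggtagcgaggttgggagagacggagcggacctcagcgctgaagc
TAPBP: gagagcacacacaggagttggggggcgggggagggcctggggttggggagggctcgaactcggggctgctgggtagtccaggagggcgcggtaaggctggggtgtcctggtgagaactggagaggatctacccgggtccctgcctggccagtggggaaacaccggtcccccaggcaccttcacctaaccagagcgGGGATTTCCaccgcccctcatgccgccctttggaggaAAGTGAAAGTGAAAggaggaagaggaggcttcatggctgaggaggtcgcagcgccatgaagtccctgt
These windows are chr6:31357130-31357429 (minus strand) for HLA-B, chr6:31272043-31272342 (minus) for HLA-C, chr6:32853655-32853954 (minus) for the upstream start of TAP1, chr6:32853942-32854241 (plus) for PSMB9, chr6:32838690-32838989 (minus) for TAP2 and chr6:33314029-33314328 (minus) for TAPBP. They are reference sequence, and the alleles of the 2 lines were not read.

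The HLA-B and HLA-C windows held the same interferon-type letters at nearly the same place, from -155 in HLA-B and from -151 in HLA-C, counted from the start. The κB-like letters in front of them, GGGGATTCC, were found in HLA-B at -177 and had no match in HLA-C. TAP2 and TAPBP each held 2 overlapping copies of AANNGAAA close to the start (from -62 in TAP2 and from -18 in TAPBP), and TAPBP also held κB-like letters at -55. The TAP1 window held 2 overlapping copies from -134, and the PSMB9 window matched neither pattern. Over the 8 genes with a window, 7 matched AANNGAAA, in 7 of their 10 windows. Of 35116 RefSeq promoter windows, 22.8% hold AANNGAAA. This pattern was chosen after the sequences had been seen. The longer GAANNGAAA, which contains it, was matched in 4 genes (7.66% of all windows) and GGGNNTTCC in 4 (6.58%). CTTTGA, the core letters bound by TCF/LEF factors, was matched in 1 gene, in a second window of TAP1 (12.9% of all windows), TGACGTCA in none (1.85%) and CCAAT in 5 (34.6%). For these other patterns too, each matching gene did so in 1 window, out of 10 windows in all. A match describes letters and not a bound site.

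The libraries held 13453614 to 21528810 estimated counts, and the variance between 2 replicates was 5.71 to 40.0 times that of counting alone, so none was taken for a copy of another. DU145 GFP+ replicate 3 stood apart from its group (24.5 and 20.3 times, against 5.85 for the other pair), and so did PC3 GFP- replicate 2 (21.4 and 40.0 times, against 6.57). The labels were checked against markers, and the libraries go against them in part. EPCAM, CDH1 and KRT19, which epithelial cells express, did not exceed 0.693 CPM in any of the 12 libraries, while the keratin KRT8 averaged 1753 CPM in DU145 GFP+, 2755 CPM in DU145 GFP-, 18.1 CPM in PC3 GFP+ and 26.1 CPM in PC3 GFP-. With the keratin KRT18, these 5 epithelial markers summed to 2881 to 3589 CPM in DU145 GFP+ and 4421 to 4891 CPM in DU145 GFP-. The sum was 373 to 410 CPM in PC3 GFP+ and 362 to 514 CPM in PC3 GFP-, most of it KRT18. CTNNA1, known as deleted in PC3, stood at 377 to 416 CPM in the libraries labelled PC3. STK11, listed for this check as lost in DU145, stood at 93.8 to 129 CPM in DU145 GFP+ and 117 to 131 CPM in DU145 GFP-. In PC3 GFP+ it stood at 99.2 to 107 CPM and in PC3 GFP- at 100 to 105 CPM. RNA does not show whether its protein was made. DU145 and PC3 below therefore mean the libraries so labelled. Of 6 known targets and regulators of Wnt signaling, 4 passed the minimum level. LEF1 was called higher in both GFP+ sorts (3.67-fold in DU145 and 3.18-fold in PC3), and NKD1, ZNRF3 and TCF7 were not called in either. The 6 genes summed to 44.4 to 52.8 CPM in DU145 GFP+ and 54.6 to 59.0 CPM in DU145 GFP-, and to 46.6 to 50.1 CPM in PC3 GFP+ and 41.2 to 48.4 CPM in PC3 GFP-. PTPRC, the pan-leukocyte marker, did not exceed 0.0904 CPM, and 6 of 8 leukocyte markers were in the table. Their summed level, mostly CD68, was 25.2 to 31.5 CPM in DU145 GFP+ and 38.6 to 43.0 CPM in DU145 GFP-, and 6.39 to 7.44 CPM in PC3 GFP+ and 4.60 to 7.29 CPM in PC3 GFP-. CD68 was called lower in DU145 GFP+. Of 6 fibroblast markers, 5 were in the table, and their sum was 2.98 to 3.75 CPM in PC3 GFP+ against 0.903 to 1.98 CPM in PC3 GFP-, with COL3A1 called higher and COL1A2 and LUM at 0 in PC3. Endothelial markers (3 of 4 in the table) summed to at most 1.19 CPM in any library. The part of these markers in the results below was not tested. In bulk RNA, fewer cells of a type and less RNA per cell cannot be told apart.

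Levels are given per library in the order of replicates 1, 2 and 3. A gene was called when its adjusted p (limma, Benjamini-Hochberg over 12527 genes) was under 0.05. In DU145, PSMB8 rose and TAP2 fell in GFP+ cells, and the other 7 did not pass. That is 1 higher and 1 lower of 9, where 27.1% of all genes tested were called (13.1% higher and 13.9% lower). The median log2 fold change was -0.25 over the 9 genes and -0.01 over all genes. In PC3, HLA-B, TAP2 and PSMB9 rose in GFP+ cells, and all 9 fold changes were positive. That is 3 higher and 0 lower of 9, where 9.44% of all genes were called (4.17% higher and 5.27% lower), and the median was 0.16 over the 9 genes and -0.02 over all genes. Without DU145 GFP+ replicate 3, 0 of the 9 were called higher in the DU145 sort and 5 lower (HLA-C, HLA-E, TAP1, TAP2 and TAPBP), with 5597 calls among all genes against 3389. Without PC3 GFP- replicate 2, TAPBP was also called higher in the PC3 sort (0.35, adjusted p = 0.0231), and HLA-B stood at 1.08 (0.00290) and PSMB9 at 2.20 (0.000533); TAP1 and TAPBP were then also called lower in the DU145 sort (0.0469 and 0.0256, limma). Of all calls, 48.6% were higher in DU145 and 44.2% in PC3, or 36.3% and 55.3% with the medians of the libraries made equal.

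**Figure D1:**
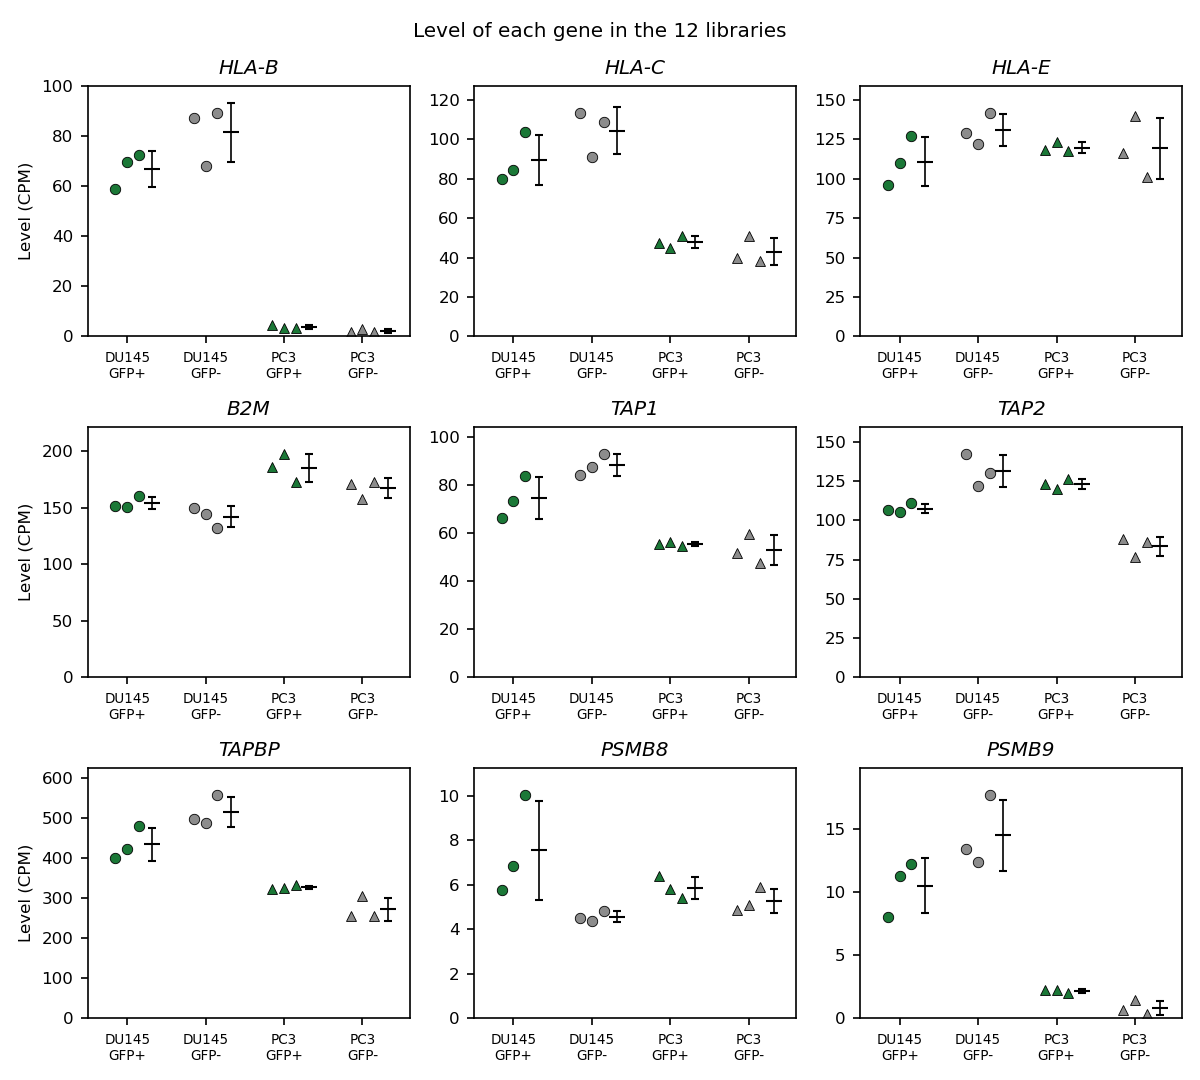
Level in CPM (vertical axes, starting at 0) of each of the 9 genes in the 12 libraries. Points are libraries (green GFP+, grey GFP-; circles DU145, triangles PC3) and the bar beside each group is its mean ± SD (n = 3). HLA-B at 58.9 to 89.4 CPM and PSMB9 at 8.03 to 17.7 CPM in DU145 stand far above PC3, and TAP2 is lower in DU145 GFP+ than in DU145 GFP- and higher in PC3 GFP+ than in PC3 GFP-.

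Of the 3 heavy chains HLA-B, HLA-C and HLA-E, only HLA-B was called in a sort comparison, in PC3. It stood at 4.49, 3.20 and 3.20 CPM in PC3 GFP+, against 1.54, 3.03 and 1.86 CPM in PC3 GFP-. Every GFP+ library was above every GFP- library, though GFP- replicate 2 came close. The means were 3.63 ± 0.75 CPM in GFP+ and 2.15 ± 0.79 CPM in GFP- (SD, n = 3 each), a log2 fold change of 0.80 ± 0.23 (SE), or 1.74-fold, with an adjusted p of 0.0423 in limma. These values rest on 229 estimated counts in the 3 GFP+ libraries and 110 in the 3 GFP- libraries. The call was lost in 16 of 26 alternative analyses, with an adjusted p of up to 0.190. Those were, among others, the fits without PC3 GFP+ replicate 1 (0.64, adjusted p = 0.174), 2 (0.88, 0.0708) or 3 (0.88, 0.0653) and without PC3 GFP- replicate 1 (0.59, 0.159) or 3 (0.73, 0.0984), and those without DU145 GFP+ replicate 2 or any 1 DU145 GFP- library, which enter only through the shared spread (0.80, 0.0506 to 0.0659).

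In DU145 the same gene stood at 58.9, 69.7 and 72.6 CPM in GFP+, against 87.5, 68.1 and 89.4 CPM in GFP-. The groups overlapped through GFP- replicate 2. The log2 fold change of -0.28 ± 0.23 did not pass (adjusted p = 0.362 in limma; 95% interval -0.77 to 0.21). The DU145 and PC3 effects of HLA-B differed by -1.08 ± 0.32 (adjusted p = 0.0382). Over all genes, 15.9% were called for such a difference between the lines. The call of this difference was lost in 12 of 25 alternatives, among them the fits without any 1 of DU145 GFP+ replicates 1 and 2, DU145 GFP- replicates 1 and 3, PC3 GFP+ replicates 1 and 2, and PC3 GFP- replicates 1 and 3 (-1.16 to -0.87, adjusted p = 0.0549 to 0.0959).

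HLA-C, next to HLA-B and read by killer-cell receptors, had a smaller line difference and no called sort effect. DU145 GFP+ had 79.8, 84.6 and 103.9 CPM, against 113.5, 91.2 and 108.8 CPM in DU145 GFP-. PC3 GFP+ had 47.5, 45.0 and 50.9 CPM, against 40.0, 50.8 and 38.3 CPM in PC3 GFP-. Both pairs of groups overlapped. The log2 fold changes were -0.23 ± 0.13 in DU145 (adjusted p = 0.186) and 0.16 ± 0.13 in PC3 (adjusted p = 0.516), and their difference of -0.39 did not pass (adjusted p = 0.150, limma).

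HLA-E showed no difference that passed in any comparison. DU145 GFP+ had 96.0, 109.8 and 126.8 CPM, against 129.1, 121.8 and 141.9 CPM in DU145 GFP-. PC3 GFP+ had 117.9, 123.6 and 117.8 CPM, against 116.6, 139.8 and 101.4 CPM in PC3 GFP-. All 4 groups overlapped with their neighbours in level. In PC3 the log2 fold change was 0.02 ± 0.12, with a 95% interval of -0.24 to 0.27. In DU145 it was -0.25 ± 0.12 (adjusted p = 0.128 in limma). B2M, the light chain that class I heavy chains need, had no called sort effect. It stood at 151.1, 151.0 and 160.7 CPM in DU145 GFP+, against 149.9, 144.1 and 131.8 CPM in DU145 GFP-, so that the groups did not overlap, yet the log2 fold change of 0.12 ± 0.08 did not pass (adjusted p = 0.227). In PC3 GFP+ it stood at 185.8, 197.7 and 172.7 CPM, against 171.2, 157.4 and 173.2 CPM in PC3 GFP-, with overlap and a log2 fold change of 0.15 ± 0.08 (adjusted p = 0.270, limma).

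TAP2 differed between the sorts of both lines, in opposite directions. PC3 GFP+ had 123.4, 119.9 and 126.6 CPM, against 88.1, 76.4 and 86.0 CPM in PC3 GFP-. No libraries overlapped, and the log2 fold change was 0.56 ± 0.08, or 1.48-fold (adjusted p = 0.000389 in limma). DU145 GFP+ had 106.3, 105.4 and 110.8 CPM, against 142.4, 121.7 and 130.1 CPM in DU145 GFP-. These groups did not overlap either, and the log2 fold change was -0.29 ± 0.08, or 0.820 times (adjusted p = 0.0202). The test of the difference between the lines gave -0.85 ± 0.11 (adjusted p = 0.000344). The PC3 rise of TAP2 passed in all 26 alternatives (0.49 to 0.60, adjusted p up to 0.0249) and the difference in all 25 (-0.98 to -0.74, adjusted p up to 0.00714). The DU145 fall of TAP2 was lost in 6 of 26: after quantile normalization (-0.14, adjusted p = 0.171), without DU145 GFP+ replicate 1 (-0.28, 0.0736) or 2 (-0.27, 0.0723) or both (-0.24, 0.417), and without DU145 GFP- replicate 1 (-0.23, 0.0897) or 3 (-0.29, 0.0654). In order of level, TAP2 was highest in DU145 GFP- (131 ± 10.4 CPM), then PC3 GFP+ (123 ± 3.3 CPM), DU145 GFP+ (107 ± 2.9 CPM) and PC3 GFP- (83.5 ± 6.2 CPM; SD, n = 3 each). The ranges of the first pair overlapped, and the ranges of the following neighbours did not.

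TAP1, the partner of TAP2 in the transporter, did not follow it in PC3. PC3 GFP+ had 55.3, 56.4 and 54.5 CPM of TAP1, against 51.7, 59.6 and 47.4 CPM in PC3 GFP-, with overlap and a log2 fold change of 0.07 ± 0.10 (adjusted p = 0.752, limma; 95% interval -0.15 to 0.29). In DU145 GFP+ it stood at 66.3, 73.2 and 83.8 CPM, against 84.0, 87.6 and 92.9 CPM in DU145 GFP-. These groups just failed to overlap, and the log2 fold change of -0.25 ± 0.10 did not pass (adjusted p = 0.0794). The lines' effects differed by -0.32 ± 0.14, which did not pass (adjusted p = 0.134).

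TAPBP, the tapasin gene, was lower in every DU145 GFP+ library than in any DU145 GFP- library and higher in every PC3 GFP+ library than in any PC3 GFP- library. DU145 GFP+ had 399.3, 421.9 and 480.4 CPM, against 497.2, 487.3 and 557.2 CPM in DU145 GFP-. PC3 GFP+ had 323.5, 324.4 and 331.4 CPM, against 255.1, 304.9 and 256.2 CPM in PC3 GFP-. Neither log2 fold change passed (-0.25 ± 0.09 in DU145, adjusted p = 0.0547; 0.27 ± 0.09 in PC3, adjusted p = 0.0784; limma). Their difference did, at -0.51 ± 0.13 (adjusted p = 0.0165), and was lost in 1 of 25 alternatives, without DU145 GFP+ replicates 1 and 2 together (-0.36, adjusted p = 0.175).

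The 2 immunoproteasome subunits moved in different sorts. PSMB9 had 2.23, 2.23 and 2.02 CPM in PC3 GFP+ (48, 41 and 46 estimated counts), against 0.670, 1.42 and 0.329 CPM in PC3 GFP- (11, 25 and 5 counts). The groups did not overlap, and the GFP- libraries were far apart from each other. The log2 fold change was 1.67 ± 0.40, or 3.18-fold (adjusted p = 0.0180 in limma). It was lost in 4 of 25 alternatives: with each line fitted alone (1.67, adjusted p = 0.0854) and without PC3 GFP+ replicate 1 (1.64, 0.0625), PC3 GFP+ replicate 2 (1.64, 0.0613) or PC3 GFP- replicate 1 (1.66, 0.0525). With 1 CPM added before the logarithm, the fold change shrank to 0.85 as low levels do on that scale.

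In DU145, PSMB9 stood at 8.03, 11.2 and 12.2 CPM in GFP+, against 13.4, 12.4 and 17.7 CPM in GFP-. These groups did not overlap, and the log2 fold change of -0.47 ± 0.40 did not pass (adjusted p = 0.383, limma). The lines' effects on PSMB9 differed by -2.14 ± 0.56 (adjusted p = 0.0230). That call was lost in 6 of 24 alternatives, namely without DU145 GFP+ replicate 1 (-1.95, adjusted p = 0.0582), DU145 GFP- replicate 1 (-2.19, 0.0502) or 3 (-1.98, 0.0652), PC3 GFP+ replicate 1 (-2.11, 0.0514) or 2 (-2.11, 0.0532), or DU145 GFP+ replicates 1 and 2 (-1.89, 0.168).

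PSMB8 had 5.77, 6.84 and 10.0 CPM in DU145 GFP+, against 4.52, 4.36 and 4.83 CPM in DU145 GFP-. The GFP+ libraries were all above the GFP- libraries and spread widely, with replicate 3 the highest. The log2 fold change was 0.69 ± 0.21, or 1.61-fold (adjusted p = 0.0294 in limma). It was lost in 8 of 25 alternatives: with equal medians (0.59, adjusted p = 0.0528), quantile normalization (0.51, 0.142) or each line alone (0.69, 0.0581), without DU145 GFP+ replicate 2 (0.74, 0.0694) or 3 (0.46, 0.0696), and without DU145 GFP- replicate 1 (0.68, 0.0802), 2 (0.65, 0.0570) or 3 (0.73, 0.0748). In PC3 GFP+, PSMB8 stood at 6.38, 5.83 and 5.40 CPM, against 4.86, 5.10 and 5.88 CPM in PC3 GFP-. These groups overlapped, and the log2 fold change of 0.15 ± 0.21 did not pass (adjusted p = 0.742). The DU145 and PC3 effects of PSMB8 were not told apart by the test of their difference (0.53 ± 0.29, adjusted p = 0.216).

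**Figure D2:**
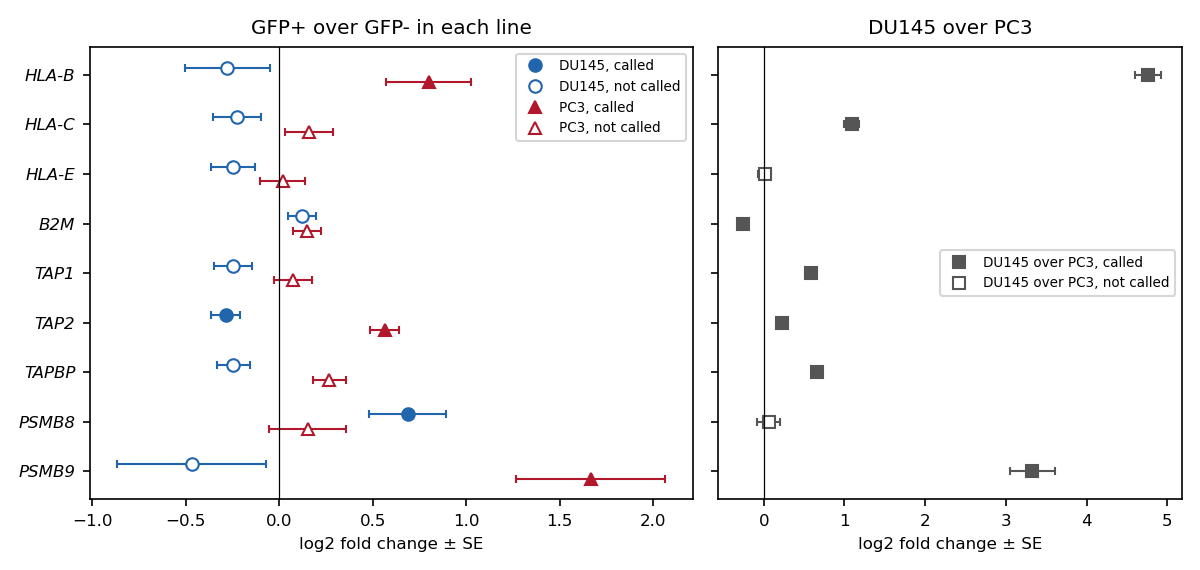
Log2 fold change ± SE (horizontal axes) of the 9 genes, GFP+ over GFP- in each line (left) and DU145 over PC3 (right), each from 12 libraries in 1 limma fit. Filled symbols passed an adjusted p of 0.05 and open ones did not: at left TAP2 lies at -0.29 in DU145 and 0.56 in PC3, and at right HLA-B and PSMB9 lie at 4.76 and 3.33.

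Counting groups that did not overlap gave 2 genes higher (B2M and PSMB8) and 4 lower (TAP1, TAP2, TAPBP and PSMB9) in DU145 GFP+, where 17.9% of all genes were higher and 22.6% lower in that sense. In PC3 GFP+ there were 4 higher (HLA-B, TAP2, TAPBP and PSMB9) and 0 lower, where 14.0% of all genes were higher and 16.4% lower. For the difference between the lines' sort effects, 4 of the 9 genes were called, all with a more negative effect in DU145 (HLA-B, TAP2, TAPBP and PSMB9), against 8.82% of all genes in that direction and 7.06% in the other. Of all such calls, 44.5% had the more positive effect in DU145, or 30.5% with equal medians.

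The DU145 fold changes of all genes followed their GC content (Spearman rho -0.63 across 12510 genes, which are not independent replicates). Their median was 0.50 among genes under 40.9% GC and -0.26 among those above 58.4%. In PC3 the rho was -0.10. HLA-C, HLA-B, TAPBP, TAP1 and HLA-E had 54.8% to 62.7% GC in their longest transcripts, PSMB8 53.8%, and TAP2, PSMB9 and B2M 40.6% to 49.1%. With the trend in GC content and length removed within each line, the DU145 log2 fold change was -0.05 for HLA-B, TAP1 and TAPBP, -0.08 for HLA-E, 0.04 for HLA-C and -0.16 for B2M, and none of these passed. That of PSMB9 was -0.51 and did not pass either (adjusted p = 0.374 in limma). That of TAP2 was -0.36 (adjusted p = 0.00318) and that of PSMB8 0.84 (adjusted p = 0.00549), both still called by limma. In PC3, 5 genes were then called higher: HLA-C (0.34, adjusted p = 0.00202) and TAPBP (0.33, adjusted p = 0.000163) besides HLA-B, TAP2 and PSMB9. The same correction took the calls among all genes in PC3 to 2405, against 1182 without it.

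**Figure D3:**
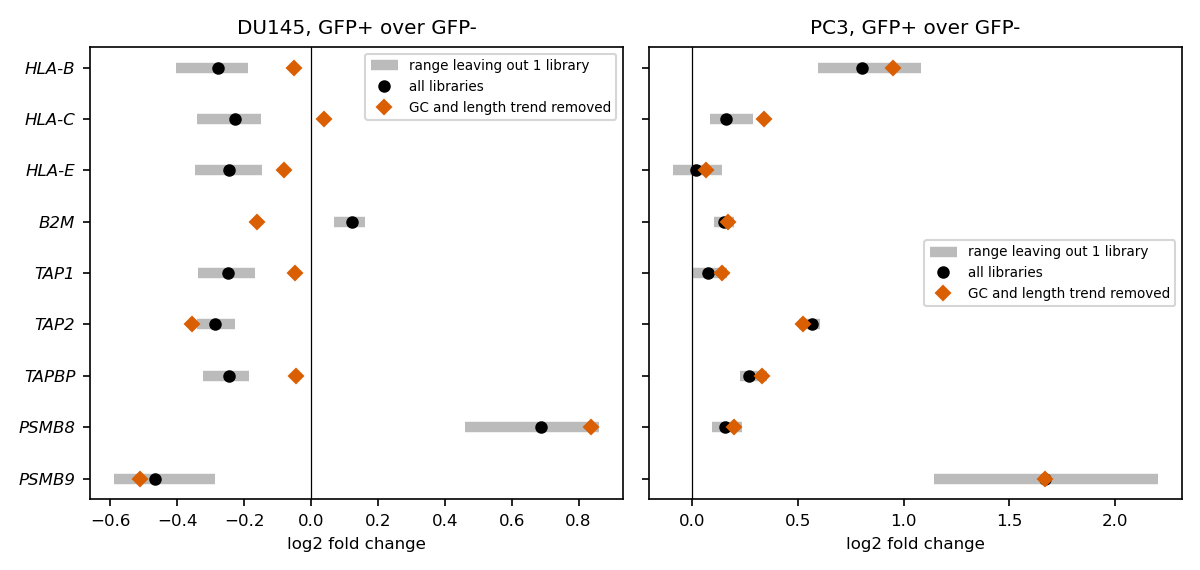
Log2 fold change GFP+ over GFP- of the 9 genes in DU145 (left) and PC3 (right): all libraries (black), the range over fits that leave out 1 library (grey bars) and once fold changes were corrected for GC content and length (orange). In DU145 HLA-B, HLA-C, HLA-E, TAP1 and TAPBP move to between -0.08 and 0.04 once the trend is removed, while TAP2 moves to -0.36; in PC3 TAP2 keeps to 0.53.

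Between the lines, DU145 libraries were higher in HLA-B, HLA-C, TAP1, TAP2, TAPBP and PSMB9 and lower in B2M, and HLA-E and PSMB8 did not pass, so that 6 were higher and 1 lower of 9. Calls were the rule in this comparison: 77.5% of all genes were called (38.3% higher and 39.2% lower). HLA-B was 27.1-fold higher in the libraries labelled DU145 (log2 4.76 ± 0.16, adjusted p = 1.33e-11 in limma) and PSMB9 10.0-fold higher (3.33 ± 0.28, adjusted p = 1.34e-07). HLA-C was 2.13-fold higher, TAPBP 1.58-fold and TAP2 1.17-fold, and TAP1 was higher by 0.58 ± 0.07 on the log2 scale. For HLA-B, HLA-C, TAP1, TAPBP and PSMB9, every DU145 library was above every PC3 library. Those 5 genes shared 1 order of mean level: DU145 GFP-, then DU145 GFP+, PC3 GFP+ and PC3 GFP-. Among the sort steps in these orders, 2 were called, those of HLA-B and PSMB9 in PC3. B2M ran in another order, with means of 185 CPM in PC3 GFP+, 167 in PC3 GFP-, 154 in DU145 GFP+ and 142 in DU145 GFP-, and its neighbours overlapped except for the last pair. PSMB8 averaged 7.55 CPM in DU145 GFP+, 5.87 in PC3 GFP+, 5.28 in PC3 GFP- and 4.57 in DU145 GFP-, and again only the last pair of neighbours did not overlap. B2M stood at a log2 fold change of -0.25 ± 0.05 in DU145 over PC3 (adjusted p = 0.000683), a call lost with equal medians (-0.11, adjusted p = 0.137), a scaling that moved the median of all genes by 0.14 in this comparison. HLA-E, at 0.01 ± 0.08, had a 95% interval of -0.17 to 0.19. The lines also differed across GC content (rho 0.57 over 12510 genes), and the correction was made within each line, so that these line values were not corrected for it.

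The levels of HLA-B and HLA-C are uncertain in a further way. HLA heavy chain genes resemble each other, and the estimated counts of both were fractions in all 6 DU145 libraries, a fraction being what is left when reads are shared out between genes. In the 6 PC3 libraries, the count was whole (within 0.01) in 3 for HLA-B and in 2 for HLA-C. In GENCODE 29 the span of HLA-B (31269491-31357188, minus strand) also covers HLA-C (31268749-31272130, minus strand) in part. Counts were whole in 5 libraries for TAP1, 1 for TAP2, 11 for PSMB8 and all 12 for HLA-E, B2M, TAPBP and PSMB9. TAP2 overlaps AL669918.1 on its own strand. The span of PSMB9 overlaps those of TAP1 and PSMB8, and each of these genes overlaps PSMB8-AS1. In exons, TAP1 overlaps only PSMB8-AS1, while PSMB8 and PSMB9 overlap each other and PSMB8-AS1. Whether strand was used in counting is not given in the sources used here, so reads in such shared exons cannot be told apart.

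The 9 genes did not vary as 1 block. With each line's mean subtracted, Pearson correlations over the 12 libraries (6 per line, which share depth and GC trend; described without a test) were 0.96 for TAP1 and HLA-E, 0.87 for HLA-B and PSMB9, and 0.86 for HLA-C and TAPBP. TAP1 and TAP2 reached 0.36. B2M and PSMB8 stood apart from the rest: B2M ranged from -0.36 (with HLA-E) to 0.35 (with TAP2) against the genes other than PSMB8, and the 2 reached 0.59 with each other. The mean of the 9 centred genes was 0.34 to 0.70 in DU145 GFP+, 0.54 to 0.74 in DU145 GFP-, -0.41 to -0.32 in PC3 GFP+ and -0.97 to -0.55 in PC3 GFP- (log2 scale, relative to each gene's mean). HLA-B and PSMB9, with the widest ranges, weigh most in it. Of 7603 other genes with a mean log2 level of at least 4, the 5 most like this profile over the 12 libraries were TMEM132A, FLCN, ICAM1, CRTC2 and NFKBIA (r from 0.995 to 0.991). With line means subtracted they were RELB, ATN1, TMEM132A, CAPN15 and NFKBIA (r from 0.974 to 0.957). RELB is an NF-κB subunit and NFKBIA an inhibitor of NF-κB.

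Other genes of the pathway were read from lists of known members. For the counts per list, 13.1% of all genes were called higher and 13.9% lower in DU145, and 4.17% and 5.27% in PC3. Of 6 other loading and trimming genes, 1 rose and 0 fell in DU145 GFP+ and 1 rose and 0 fell in PC3 GFP+, and each was an aminopeptidase that trims peptides in the endoplasmic reticulum. ERAP2 had 9.22 ± 1.72 CPM in DU145 GFP+ and 4.42 ± 0.14 CPM in DU145 GFP- (log2 1.04 ± 0.22, adjusted p = 0.00814). ERAP1 had 42.4 ± 0.50 CPM in PC3 GFP+ and 27.5 ± 3.0 CPM in PC3 GFP- (0.63 ± 0.12, adjusted p = 0.00364; SD, n = 3 each; limma). HLA-F, a heavy chain of restricted expression, rose in PC3 GFP+ to 1.68 ± 0.36 CPM, against 0.628 ± 0.28 CPM in PC3 GFP- (1.51 ± 0.34, adjusted p = 0.0129), a call lost without PC3 GFP+ replicate 3 (1.37, adjusted p = 0.0563) and with each line alone (1.51, 0.0710). The ERAP2 call was lost after the GC correction (0.59, adjusted p = 0.0597) and also without DU145 GFP+ replicates 1 and 2 (0.72, 0.409). The ERAP1 call was lost in 1 of 26 alternatives, without PC3 GFP- replicates 2 and 3 (0.49, adjusted p = 0.135).

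Of 14 constitutive proteasome subunits, 1 rose and 4 fell in DU145 GFP+, and 1 rose and 0 fell in PC3 GFP+. PSMB5, the subunit that PSMB8 replaces, had 164 ± 25.3 CPM in DU145 GFP+ and 214 ± 16.0 CPM in DU145 GFP- (-0.39 ± 0.12, adjusted p = 0.0273), and PSMB7 and PSMB2 fell by 0.35 and 0.26 on the log2 scale. In PC3 GFP+, PSMB2 had 384 ± 14.98 CPM, against 325 ± 15.9 CPM in PC3 GFP- (0.24 ± 0.07, adjusted p = 0.0325). Of 5 other immunoproteasome and activator genes, PSME3 fell in DU145 GFP+ (-0.24 ± 0.08, adjusted p = 0.0407) and 0 passed in PC3 (1 at an unadjusted p under 0.05, limma). Of 5 other peptidases, THOP1, which destroys class I peptides in the cytosol, fell in DU145 GFP+ (-0.48 ± 0.11, adjusted p = 0.00974) and 0 passed in PC3 (again 1 unadjusted).

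Of 11 transcription factors of class I genes, 0 passed in DU145 by limma (1 higher and 1 lower at an unadjusted p under 0.05). In PC3 GFP+ 1 rose and 1 fell. NFKB1 had 78.1 ± 2.6 CPM in PC3 GFP+ and 62.5 ± 3.6 CPM in PC3 GFP- (0.32 ± 0.08, adjusted p = 0.0171). RFXANK, a subunit of the RFX complex, had 69.3 ± 1.8 CPM in PC3 GFP+ and 98.8 ± 19.6 CPM in PC3 GFP- (-0.49 ± 0.14, adjusted p = 0.0393). Of 12 interferon receptor and signalling genes, 2 rose and 2 fell in DU145 GFP+, with IFNGR1 among the first (0.65 ± 0.20, adjusted p = 0.0338) and IFNGR2 among the second (-0.25 ± 0.09, adjusted p = 0.0441; limma), and in PC3 GFP+ 0 rose and 1 fell (STAT2, -0.37 ± 0.11, adjusted p = 0.0479).

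Of 26 interferon-stimulated genes in the table, 14 passed the minimum level. In DU145 GFP+ their median log2 fold change was 0.37, without the GC correction. By limma 3 of the 14 rose and 0 fell there, where 13.1% of all genes rose and 13.9% fell. The 3 were IFIT3 (2.12 ± 0.51, adjusted p = 0.0127, at 1.71 ± 0.72 CPM in GFP+ and 0.417 ± 0.24 CPM in GFP-), PARP14 (0.95 ± 0.23, 0.0137) and DDX58 (0.89 ± 0.24, 0.0195). In PC3 GFP+ 1 rose and 0 fell, OAS3 (0.36 ± 0.08, adjusted p = 0.0140), with a median of 0.02. Of all genes, 4.17% rose and 5.27% fell in that sort. Of 9 class II genes in the table, 1 passed the minimum and it was not called in either line, adjusted or not.

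Natural killer cells read the loss of class I and also activating ligands. Of 7 such ligands tested, 2 fell in DU145 GFP+ and 1 in PC3 GFP+, and 0 rose in either. MICA had 77.8 ± 6.8 CPM in DU145 GFP+ and 102 ± 10.5 CPM in DU145 GFP- (-0.40 ± 0.12, adjusted p = 0.0300), and PVR fell by 0.22 on the log2 scale (adjusted p = 0.0312). ULBP1 had 4.16 ± 0.80 CPM in PC3 GFP+ and 8.47 ± 1.28 CPM in PC3 GFP- (-1.03 ± 0.20, adjusted p = 0.00604; SD, n = 3 each; limma).

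Several of these calls were lost when 1 library was left out (limma, adjusted p). In the DU145 sort, those of DDX58, IFNGR1, MICA, PSMB5, PSMB7 and PVR were each lost without DU145 GFP+ replicate 1 or 2 or DU145 GFP- replicate 1 or 3 (0.0545 for DDX58 to 0.160 for IFNGR1). Those of IFNGR2 and PSME3 were lost without any of these libraries and some others (up to 0.206 for IFNGR2 and 0.175 for PSME3). The calls of PSMB2 and PARP14 were lost without DU145 GFP+ replicate 1 or 2 or DU145 GFP- replicate 3 (up to 0.0682 and 0.0706), that of IFIT3 without DU145 GFP+ replicate 1 (0.0663) or DU145 GFP- replicate 1 (0.0542), and that of THOP1 without DU145 GFP- replicate 3 (0.0531). After the GC correction, the DU145 fold changes of DDX58 (0.49, 0.0507), IFNGR1 (0.34, 0.0946), IFNGR2 (-0.08, 0.417) and PVR (-0.03, 0.712) did not pass either. In the PC3 sort, NFKB1 was lost without PC3 GFP+ replicate 1 or 2 or PC3 GFP- replicate 3 (up to 0.0750) and OAS3 without PC3 GFP+ replicate 1 or 2 or PC3 GFP- replicate 1 (up to 0.0673). RFXANK, STAT2 and PSMB2 were lost in 8, 9 and 5 of the 12 such fits (up to 0.127, 0.155 and 0.130). ERAP1, ERAP2 and ULBP1 passed in every fit that left out 1 library.

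**Figure D4:**
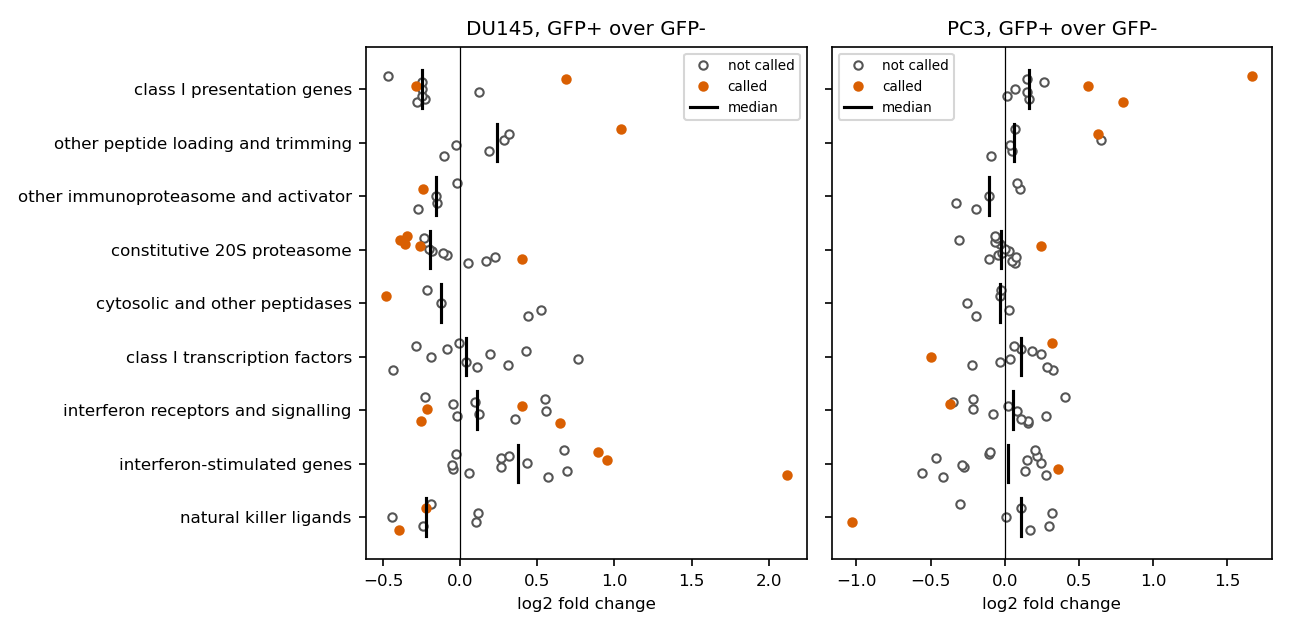
Log2 fold change GFP+ over GFP- (horizontal axes) of each gene tested in 9 lists (rows), in DU145 (left) and PC3 (right). Values are without the GC correction. Orange points passed an adjusted p of 0.05, open points did not, and black bars are medians: that of the class I presentation genes lies at -0.25 in DU145 and 0.16 in PC3, and that of the interferon-stimulated genes at 0.37 and 0.02.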

How the data were processed

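The authors deposited 1 table of log2 expression values for 18950 genes in 12 libraries. STAR and DESeq2 are named, without versions, per the submitters' processing notes; for the genome build, the counting tool and its strand setting, the sources used here give none. The deposited log2 values behaved as log2 CPM with an offset of 0.5 counts: read so, 86.9% of estimated counts were whole within 0.01 (median over libraries), and CPM and estimated counts here were computed on that reading. A count of 3 stood for 0.130 to 0.233 CPM. The precision of low genes is limited by counting, and no interval for it is given.

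Genes with at least 1 CPM in at least 3 libraries (12527) were fitted with limma 3.58.1 in R 4.3.3 (trended prior variance, 4 group means, 8 residual degrees of freedom, two-sided, Benjamini-Hochberg within each comparison, threshold 0.05), after a check on simulated data. Intervals in the text are 95% intervals of the fit. GC content and length came from GENCODE 29, matched by identifier for 18901 genes, and promoters from RefSeq. Nothing in the labels says that replicates came from separate cultures; p-values then reflect the variation among these libraries alone, which may be technical.

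The genes and lists were chosen with earlier results of these data known. All 9 class I genes are described, and of the other lists the called genes, or for long lists the 3 with the smallest p in each sort. Some genes of these lists are not reported here. Alternatives covered the minimum level, scaling, pseudocount, variance model, voom on estimated counts, replicate block, GC and length trend, each line fitted alone, and libraries left out.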

Additional observations from a re-analysis of the deposited data

Results flagged for a closer look

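The GFP sort had different effects in the lines, by limma's test of the difference (DU145 effect minus PC3 effect, log2 scale), for 4 of the 9 class I genes. HLA-B differed by -1.08 (adjusted p = 0.0382), TAP2 by -0.85 (0.000344), TAPBP by -0.51 (0.0165) and PSMB9 by -2.14 (0.0230). In each, the DU145 fold change was negative and the PC3 fold change positive. In DU145 only that of TAP2 was called, and in PC3 that of TAPBP was not. With the GC and length trend removed, the DU145 fold changes of HLA-B and TAPBP were -0.05 each, and the 4 differences still passed. The difference of HLA-C then passed as well (-0.30, adjusted p = 0.0275 in limma). Over all genes the difference followed GC content (Spearman rho -0.43). Of all genes, 15.9% were called in this test. CD68 also differed, by -1.01 (adjusted p = 0.0224), and its part in these differences was not tested.

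Of the other genes named, HLA-F differed by -1.90 (adjusted p = 0.0193), PSMB2 by -0.51 (0.00333), MICA by -0.56 (0.0396), IFNGR2 by -0.41 (0.0378), OAS3 by -0.40 (0.0329) and PVR by -0.33 (0.0345), each more negative in DU145 by limma. ULBP1 differed the other way, by 1.14 (adjusted p = 0.0197). In the alternatives, PSMB2 kept its call in all 25. The calls were lost in 3 of 24 for HLA-F (adjusted p up to 0.184), 8 of 24 for ULBP1 (0.154), 11 of 25 for OAS3 (0.179), 13 of 25 for MICA (0.283), 14 of 25 for IFNGR2 (0.250) and 16 of 25 for PVR (0.233). For HLA-F these included the fits without DU145 GFP+ replicate 2 or DU145 GFP- replicate 3. For ULBP1 they included those without DU145 GFP+ replicate 2, DU145 GFP- replicate 1, PC3 GFP+ replicate 2 or PC3 GFP- replicate 1 or 3. For OAS3, MICA, IFNGR2 and PVR they included those without any of DU145 GFP+ replicates 1 and 2, DU145 GFP- replicates 1 and 3, PC3 GFP+ replicates 1 and 2 or PC3 GFP- replicates 1 and 3, and without PC3 GFP+ replicate 3 for the last 3. No test for outlying values of single genes was run, since each group holds 3 libraries.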

How the results depend on the processing

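Over the 9 genes, 4 comparisons and the alternatives, 810 results kept their direction and side of the threshold, 54 lost a call, 28 gained one and 18 changed sign. For the other list genes named, 524 were kept and 217 lost. Line differences of HLA-B, HLA-C, TAP1, TAP2, TAPBP and PSMB9, and the PC3 and between-line calls of TAP2, passed in every alternative run. The cause of each loss was not tested.

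Signs turned as follows. With the GC and length trend removed, with or without the replicate block, the DU145 sort effect was 0.0373 for HLA-C and -0.16 for B2M. The difference of B2M between the lines' effects was 0.10 after quantile normalization, 0.0338 without DU145 GFP+ replicates 1 and 2, 0.00919 without PC3 GFP- replicates 2 and 3, and -0.0782 to 0.0214 in fits that left out 1 library. HLA-E in DU145 over PC3 was -0.11 after quantile normalization and -0.0437 to 0.0722 in such fits, and that of PSMB8 -0.0524 to 0.148. In the PC3 sort, leaving out 1 library gave -0.0927 to 0.139 for HLA-E and -0.00349 to 0.162 for TAP1.

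Counts of class I genes called in the DU145 sort (1 higher, 1 lower) became 0 higher and 2 lower with a minimum of 4 on the log2 scale or equal medians, 0 lower after quantile normalization (2252 genes called in all), 0 higher with each line alone, 0 lower without DU145 GFP+ replicates 1 and 2 (170 in all) and 2 lower without PC3 GFP- replicates 2 and 3. In the PC3 sort (3 higher), 5 were higher with the GC trend removed (2405 in all; 2654 with the replicate block) and 1 with each line alone, and 410 genes were called in all without PC3 GFP- replicates 2 and 3. For the difference between lines, 3102 genes were called with the trend removed, 3588 with trend and block, 649 (1 class I gene) without DU145 GFP+ replicates 1 and 2 and 1188 without PC3 GFP- replicates 2 and 3. With equal medians, 0 class I genes were lower in DU145 over PC3; that scaling moved the median of all genes by -0.09 in the DU145 sort, 0.04 in the PC3 sort, -0.13 in their difference and 0.14 between lines.

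Leaving out 1 library at a time gave 0 to 1 class I genes higher and 0 to 5 lower in the DU145 sort (896 to 5597 genes in all), 1 to 4 higher and 0 lower in the PC3 sort (660 to 1492), 2 to 6 with a lower effect in DU145 (1145 to 3661) and 9323 to 9803 genes between lines. Without DU145 GFP+ replicate 3, HLA-C, HLA-E, TAP1 and TAPBP were also called lower in the DU145 sort (-0.35 to -0.32, adjusted p = 0.0112 to 0.0425, limma).

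With the replicate number as a block, 4 class I genes were called lower in DU145 GFP+, TAP2 with HLA-E (adjusted p = 0.0415), TAP1 (0.0315) and TAPBP (0.0171), TAPBP was also called higher in PC3 GFP+ (0.0278, limma), and 3321 genes differed between lines. Same-numbered libraries deviated together with r of -0.02, 0.09 and 0.21 in DU145 and 0.06, 0.20 and 0.14 in PC3, so the numbers were not taken to pair the libraries, though each PC3 library correlated best with its own number. Depth limits HLA-B and PSMB9 in PC3 most: a PC3 GFP- library held as few as 26 and 5 estimated counts of them.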

Other observations

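Of the 26 interferon-stimulated genes in the table, 12 lay under the minimum level, and the values of some of these were noticed after they were seen. IFI44L, induced by type I interferon, had 0.760, 0.618 and 1.32 CPM in PC3 GFP+ and no estimated count in any of the 3 PC3 GFP- libraries. IDO1, the tryptophan-degrading enzyme that interferon-γ induces, had 0.161, 0.349 and 0.238 CPM in PC3 GFP+ and no count in PC3 GFP-. In both cases the other side is set by the 0.5-count offset, so neither a fold nor a p is given. The other 10, among them IFIT2, OAS1, OAS2, GBP1, GBP2, CXCL10 and BST2, lay under it too, and their folds are not given here. They did not share 1 direction. In PC3 GFP+, the mean log2 value was lower for IFIT2 and OAS2 and higher for OAS1, GBP1 and GBP2. It was also higher for those of the 10 not named here. CXCL10 and BST2 had the same PC3 difference as KRT19, which had no count in PC3, so no direction is given for them. In DU145 GFP+, the mean log2 value was lower for CXCL10 and BST2 and higher for IFIT2, OAS1, OAS2, GBP1 and GBP2. Those of the 10 not named were higher there too, except for 1 that had the value of genes without a count in DU145. At these levels the offset weighs on each of them.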
